A study of Mus musculus with 8 samples.

Results

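Prostaglandins are lipid signals that cells make on demand from arachidonate. Cyclooxygenases turn arachidonate into the short-lived intermediate prostaglandin H, terminal synthases convert that intermediate into prostaglandin D, prostaglandin E or thromboxane, and dehydrogenases and reductases inactivate the products. In the brain they take part in fever, sleep, blood flow and microglial responses. The levels of 10 genes of this pathway, out of 31053 genes counted, are described here in every cell class and every library: the cyclooxygenases *Ptgs1* and *Ptgs2*, the prostaglandin D synthases *Ptgds* and *Hpgds*, the prostaglandin E synthases *Ptges*, *Ptges2* and *Ptges3*, the thromboxane synthase *Tbxas1*, and the inactivating enzymes *Hpgd* and *Ptgr1*. The genes were chosen because *Hpgd* was higher in *Ifnar1*-/- than in Wt microglia in these same libraries. That difference is therefore given as a description with no test, and nothing is supported with it.

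Single-nucleus RNA sequencing was done on frozen cortex from 8 mice. There were 4 Wt animals (2 of each sex) and 4 *Ifnar1*-/- animals (2 of each sex). All mice were naive, labelled as C57BL6J and 6 weeks old. *Ifnar1* encodes a subunit of the receptor for type I interferons, the Wt mice carried intact alleles (Ifnar1+/+), and the *Ifnar1*-/- mice carried the knockout on both alleles. Each library came from 1 mouse, so the mouse was the replicate, and libraries are named by sex and number (F1, F2, M1, M2).

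The 8 libraries held 56780 barcodes called as nuclei by the authors and 44063346 to 58423423 unique molecular identifiers (UMIs, counts of captured RNA molecules) each. After filters on depth and doublets 52079 nuclei remained. Median UMIs per nucleus ranged from 4775 in *Ifnar1*-/- F1 to 9813 in *Ifnar1*-/- F2. The mitochondrial share of UMIs was 0.206, 0.296, 0.411 and 0.178% in the females (Wt F1, Wt F2, *Ifnar1*-/- F1 and *Ifnar1*-/- F2) and 0.482, 0.622, 0.435 and 1.12% in the males in the same order, so every male library lay above every female library. Of 56392 distinct barcode sequences 384 occurred in more than 1 library and 0 in all 8.

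*Ifnar1* itself was counted in every library. Over all nuclei it stood at 19.9, 16.2, 17.5 and 18.7 CPM (UMIs of the gene scaled to a class total of 1e6) in Wt F1, F2, M1 and M2, and at 13.9, 14.5, 16.8 and 15.9 CPM in the corresponding *Ifnar1*-/- libraries. In microglia the values were 62.1, 42.4, 54.3 and 56.7 CPM in Wt and 23.0, 28.6, 30.8 and 36.2 in *Ifnar1*-/-. The genotypes overlapped over all nuclei and not in microglia. Neither difference passed edgeR's test (log2 fold changes of -0.24 and -0.81, adjusted p = 1 for both, where p-values are adjusted by the Benjamini-Hochberg method over all genes of a class). The counts do not show which part of the transcript the UMIs came from, so they do not check the deletion itself.

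Nuclei were assigned to 10 classes by marker genes, with none of the 10 prostaglandin genes among the genes used. Glutamatergic neurons comprised 24141 nuclei, oligodendrocytes 7089, GABAergic neurons 6580 and microglia 4385. Microglia ranged from 155 nuclei in *Ifnar1*-/- F1 to 765 in Wt M2 and *Ifnar1*-/- M2. Smaller classes were striatal projection neurons (981 nuclei), oligodendrocyte precursors (451), newly formed oligodendrocytes (212), astrocytes (172), border macrophages of the brain's surfaces and vessels (96), and leptomeningeal and vascular cells (48). A further 7924 nuclei (15.2%) were not named. The share of nuclei passed an exact permutation test between genotypes in no class (lowest p = 0.2, where 0.0286 is the smallest that 4 against 4 libraries allow).

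The cyclooxygenases lay in different classes. *Ptgs1* (ENSMUSG00000047250, chromosome 2 from 36230426 to 36252272), the cyclooxygenase that most cells holding it make constantly, reached 427 ± 74.7 (SD, n = 8) CPM in microglia. These nuclei gave 63.7% of all *Ptgs1* UMIs from 1.79% of all UMIs. Per library the microglial level was 419, 345, 462 and 425 CPM in Wt and 552, 466, 437 and 310.2 CPM in *Ifnar1*-/-. The highest and the lowest library were both *Ifnar1*-/- (F1 and M2), so the spread lay within that genotype. Border macrophages stood at 76.2 ± 74.1 (SD, n = 8) CPM on 12 UMIs in all, and every library had more *Ptgs1* per UMI in microglia than in border macrophages.

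Outside the macrophage classes, astrocytes had 17.3 ± 19.9 (SD, n = 8) CPM of *Ptgs1* on 12 UMIs in 4 of 8 libraries. GABAergic neurons, with UMIs in every library, stood at 16.5 ± 3.24 (SD, n = 8) CPM, from 12.4 to 23.0 over libraries. Glutamatergic neurons stood at 1.79 ± 0.267 (SD, n = 8) CPM and oligodendrocytes at 2.05 ± 0.850 (SD, n = 8) CPM. Among the GABAergic subclasses, parvalbumin interneurons had 24.5 ± 4.68 CPM and somatostatin interneurons 18.1 ± 5.27 CPM, against 4.59 ± 1.76 CPM in Lamp5 interneurons (SD over 8 libraries in each). The lowest parvalbumin library (20.3 CPM) lay above the highest Lamp5 library (6.71 CPM). Within glutamatergic neurons, layer 6b neurons stood out with 11.4 ± 1.34 CPM, against 0.644 ± 0.458 CPM in layer 4 neurons. These subclasses were compared after their values were seen, so no test is given.

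*Ptgs2* (ENSMUSG00000032487, chromosome 1 from 150100031 to 150108227), the inducible cyclooxygenase and in neurons an activity-dependent gene, lay mostly in glutamatergic neurons. Of its 1618 UMIs 80.5% were in glutamatergic neurons, which held 62.1% of all UMIs and stood at 5.66 ± 0.803 (SD, n = 8) CPM, and 11 UMIs in all were in microglia, which stood at 1.72 ± 2.02 (SD, n = 8) CPM. Each of the 8 libraries had the higher level in glutamatergic neurons. The mean of leptomeningeal and vascular cells was higher still (16.0 CPM) but rested on 2 UMIs in Wt F2. Without that library, or with nuclei classed by their own markers, it was 0. Layer 2/3 neurons had 13.5 CPM (highest library 15.2), layer 4 neurons 4.93 ± 1.07 CPM and layer 6b neurons 0.849 ± 0.873 CPM. The lowest layer 2/3 library (11.3 CPM) lay above the highest layer 4 library (5.97 CPM).

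The prostaglandin D synthases were highest in different classes. *Ptgds* (ENSMUSG00000015090, chromosome 2 from 25466709 to 25470046), the lipocalin-type synthase that is also secreted into cerebrospinal fluid, was highest in leptomeningeal and vascular cells at 4317 ± 3682 (SD, n = 8) CPM and in oligodendrocytes at 2435 ± 1126 (SD, n = 8) CPM. The first mean was taken over 48 nuclei, and 2 of 8 libraries had 0 *Ptgds* UMIs there. Oligodendrocytes gave 87.6% of all *Ptgds* UMIs. Newly formed oligodendrocytes stood at 393 ± 231 (SD, n = 8) CPM and precursors at 72.6 ± 55.3 (SD, n = 8) CPM, so the level was higher at each later stage of the lineage by its mean. Mature oligodendrocytes lay above newly formed ones in 8 of 8 libraries. The 3 oligodendrocyte clusters differed, at 558 ± 242, 1553 ± 746 and 4124 ± 1854 CPM (SD, n = 8), and in each of the 8 libraries the order of the clusters was the same. The clusters were compared after their values were seen, and no test is given.

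*Hpgds* (ENSMUSG00000029919, chromosome 6 from 65117293 to 65144908), the haematopoietic synthase of prostaglandin D, was highest in microglia at 795 ± 159 (SD, n = 8) CPM and next in border macrophages at 547 ± 283 (SD, n = 8) CPM. The single libraries of border macrophages spanned 121 to 1009.8 CPM on 92 UMIs, and the order of these classes held in 7 of 8 libraries. Striatal projection neurons followed with 48.0 ± 19.3 (SD, n = 8) CPM and glutamatergic neurons with 33.7 ± 13.7 (SD, n = 8) CPM. Newly formed oligodendrocytes had 28.0 ± 19.3 (SD, n = 8) CPM on 20 UMIs, and GABAergic neurons 23.6 ± 7.57 (SD, n = 8) CPM. Striatal projection neurons lay above glutamatergic neurons in every library. Oligodendrocytes stood at 12.9 ± 4.91 (SD, n = 8) CPM. Glutamatergic neurons held 7702 *Hpgds* UMIs, which was 45.4% of them against 62.1% of all UMIs. Microglia held 5353, which was 31.6% against 1.79% of all UMIs.

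Free RNA from broken nuclei gives some UMIs of any gene in every class, and would bring the genes of a source cell in a shared ratio. Per UMI of *Csf1r*, a receptor gene of macrophages, microglia had 0.366 *Hpgds* UMIs, against 13.6 in glutamatergic neurons (mean of 8 libraries). The libraries ranged from 0.235 to 0.540 in microglia and from 4.94 to 25.2 in glutamatergic neurons. No profile of free RNA was measured, so its part in the neuronal counts was not tested. For *Tbxas1* the ratios were 0.234 and 1.32, and for *Hpgd* 0.0265 to 0.140 in microglia over libraries and 0.569 to 2.39 in glutamatergic neurons. In oligodendrocytes the *Ptgs1* ratio of 0.233 and the *Hpgd* ratio of 0.0760 were near the microglial ones (0.193 and 0.0901), whereas those of *Hpgds* (1.72) and *Tbxas1* (0.562) were above them. Oligodendrocytes held only 10 to 34 *Csf1r* UMIs per library, and their *Hpgd* ratio was 0 in Wt F1, Wt F2 and Wt M2. Whether the UMIs of these genes in oligodendrocytes were free RNA was not tested.

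The prostaglandin E synthases differed in their spread over classes. *Ptges3* (ENSMUSG00000071072, chromosome 10 from 128058954 to 128077272), a cytosolic synthase that is also a cochaperone of Hsp90, lay between 24.4 CPM in glutamatergic neurons and 64.2 CPM in leptomeningeal and vascular cells by its class means, with 50.4 ± 16.1 (SD, n = 8) CPM in microglia. The leptomeningeal mean rested on 8 UMIs. It was 41.4 CPM without Wt M2, where border macrophages were highest (as without Wt F1), and 20.1 CPM with nuclei classed by their own markers, where microglia were highest. *Ptges2* (ENSMUSG00000026820, chromosome 2 from 32395896 to 32405772), a membrane-associated synthase, had its highest mean in astrocytes, on 6 UMIs, then 10.8 CPM in oligodendrocytes, down to 6.96 CPM in striatal projection neurons, and 0 UMIs in leptomeningeal and vascular cells. Oligodendrocytes were highest without Wt F2 and by own markers, where astrocytes had 8.68 CPM. *Ptges* (ENSMUSG00000050737, chromosome 2 from 30889471 to 30929863), the microsomal synthase that can be induced together with *Ptgs2*, had 74.7% of its UMIs in glutamatergic neurons, against 62.1% of all UMIs, at 6.32 ± 0.656 (SD, n = 8) CPM. Its mean was highest in layer 6 corticothalamic neurons (9.32 ± 1.51 CPM) among the neuronal subclasses, whereas that of *Ptgs2* was highest in layer 2/3. Somatostatin interneurons (5.94 ± 2.23 CPM) lay above layer 2/3 neurons (4.57 ± 1.64 CPM) for *Ptges* by their means. Microglia held 9 *Ptges* UMIs in all. The leptomeningeal mean of *Ptges* (44.5 CPM) came from 5 UMIs in 3 libraries, and was 21.2 CPM without *Ifnar1*-/- F2 and 9.18 CPM by own markers.

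*Tbxas1* (ENSMUSG00000029925, chromosome 6 from 38875404 to 39084585), the synthase of thromboxane, was found in the macrophage classes. Border macrophages stood at 555 ± 337 (SD, n = 8) CPM and microglia at 513 ± 60.7 (SD, n = 8) CPM. Microglia lay above border macrophages in 5 of 8 libraries, although their mean was lower. The mean of border macrophages was the higher through Wt F1 (16 UMIs in 7 nuclei, 1281 CPM). Without that library it was 451 CPM. Every library had more *Tbxas1* in microglia than in astrocytes, the next class at 12.8 ± 11.2 (SD, n = 8) CPM. All named neuronal classes had means below 4.24 CPM, the mean of newly formed oligodendrocytes. *Tbxas1* is overlapped on the opposite strand by *Hipk2*, which had 46195 UMIs, and by *Gm42962* and *1700025N23Rik*. UMIs misassigned between overlapping genes cannot be told apart by position.

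Of the inactivating enzymes *Hpgd* had its highest means in the macrophage classes. *Hpgd* (ENSMUSG00000031613, chromosome 8 from 56294585 to 56321043), the dehydrogenase that oxidises prostaglandins E and F and so ends their action, had 253 ± 181 (SD, n = 8) CPM in border macrophages and 199 ± 100.3 (SD, n = 8) CPM in microglia. The order turned with nuclei classed by their own markers (109.5 CPM in border macrophages and 157 in microglia) and without Wt F2 (198 and 209). The border macrophage level was 160.1, 644, 241 and 113 CPM in Wt and 121, 219.7, 144 and 384 CPM in *Ifnar1*-/-, on 43 UMIs in all, and the genotypes overlapped. Astrocytes came next at 72.1 ± 130.0 (SD, n = 8) CPM, of which Wt F2 gave 21 of 31 UMIs in 10 nuclei (386 CPM), and 3 libraries had 0 UMIs there. Glutamatergic neurons stood at 3.11 ± 0.745 (SD, n = 8) CPM on 717 UMIs and lay above GABAergic neurons (1.22 ± 0.630 (SD, n = 8) CPM) in every library. Leptomeningeal and vascular cells had 0 UMIs.

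*Ptgr1* (ENSMUSG00000028378, chromosome 4 from 58965439 to 58987119), which reduces the double bond left by *Hpgd* in prostaglandins, was nearly absent. It had 76 UMIs in all nuclei, 34 of them in glutamatergic neurons, 0 in border macrophages and 17 in microglia (2.20 ± 2.15 (SD, n = 8) CPM). In Wt the microglial UMIs numbered 5, 2, 0 and 1, and in *Ifnar1*-/- 0, 1, 5 and 3. A floor of 3 UMIs would be 5.43 CPM in Wt M1 and 17.3 CPM in *Ifnar1*-/- F1, the libraries with 0 UMIs. The highest measured value was 6.15 CPM, below the floor of *Ifnar1*-/- F1 and slightly above that of Wt M1. The count of 0 in *Ifnar1*-/- F1 therefore does not separate it from the other libraries. That in Wt M1 does not separate it from the other Wt libraries (highest 4.20 CPM).

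**Figure D1:**
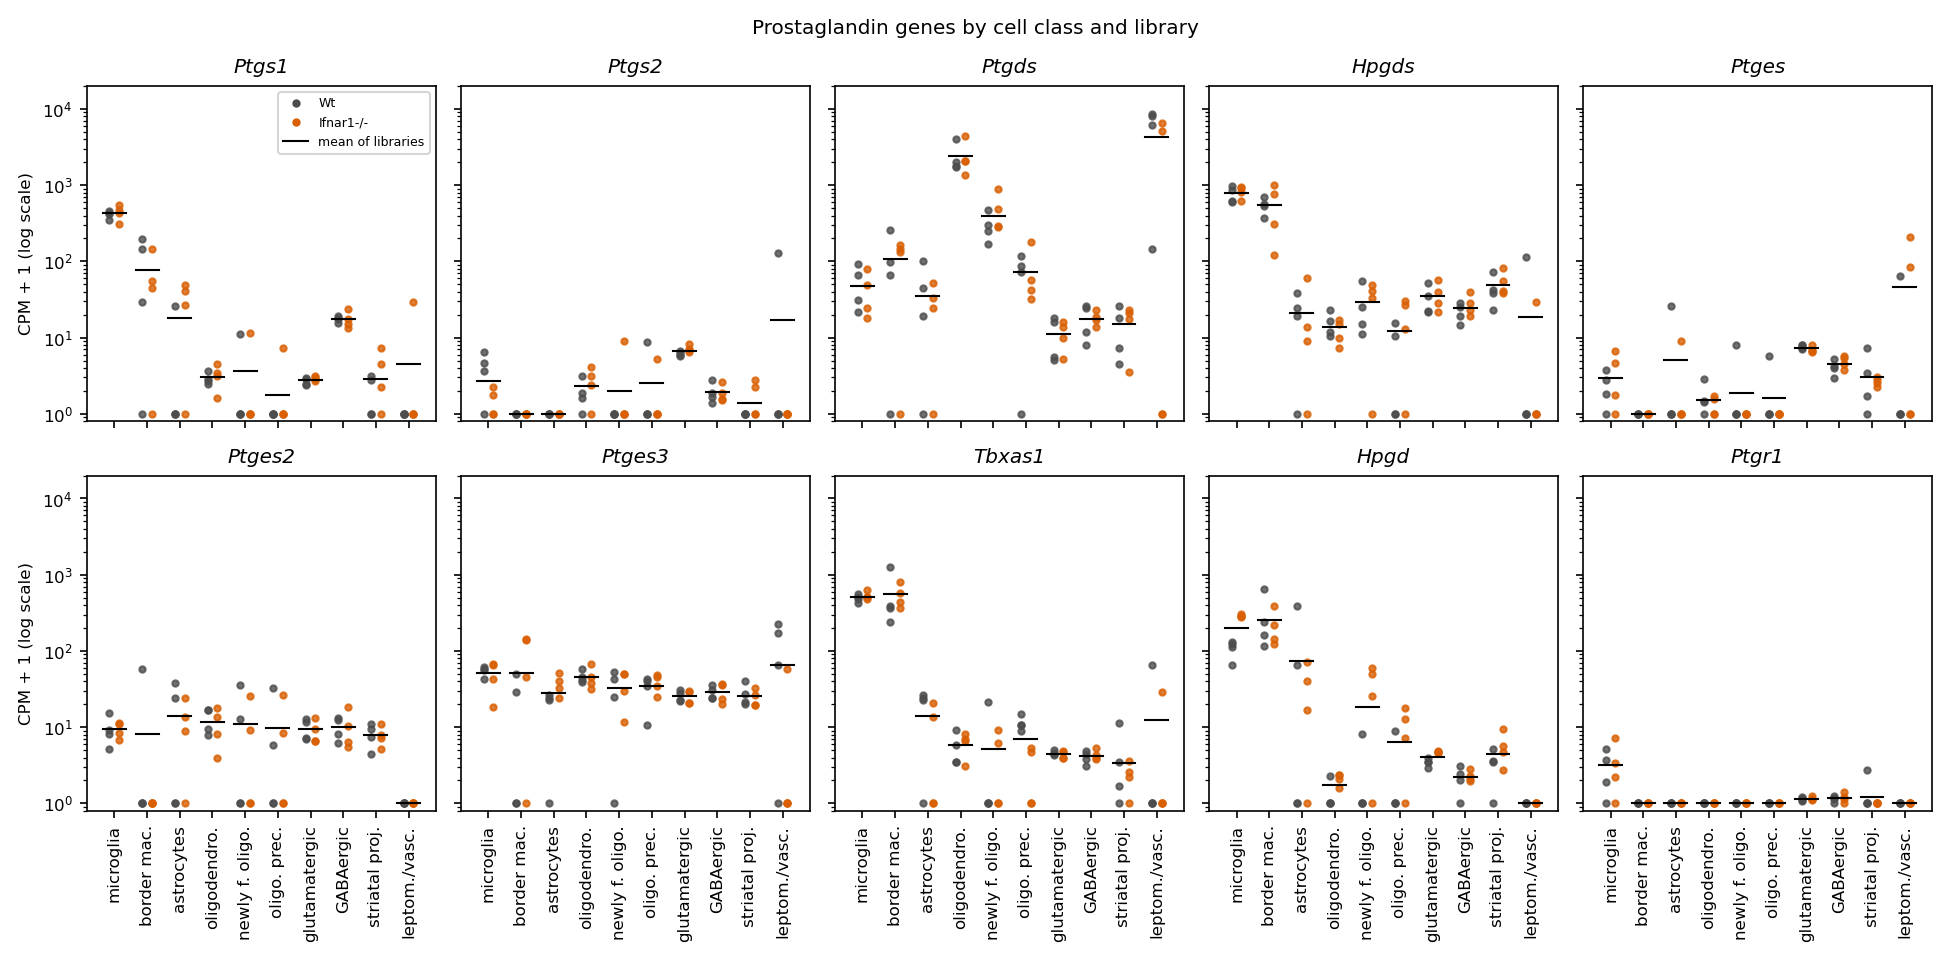
Level of the 10 genes in 10 cell classes, as CPM + 1 on a log axis, with a point for each library (Wt grey, *Ifnar1*-/- orange) and a bar at the mean of libraries. *Ptgs1*, *Hpgds*, *Tbxas1* and *Hpgd* have their high points in microglia and border macrophages, and *Ptgds* in oligodendrocytes and leptomeningeal cells.

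The order of classes was tested between neighbours in the order of means, for 90 pairs over the 10 genes. The test was an exact permutation test paired by library. The order of means came from the same 8 libraries, so the direction of a pair is a description. With 8 pairs the smallest exact p is 0.00781, and 10 pairs reached it, which after adjustment over the 90 pairs gives p = 0.0703 in each. None of the pairs therefore passed 0.05, which does not show that the classes were alike. In 2 of the 10 pairs the lower class had 0 UMIs (*Ptges2* in leptomeningeal and vascular cells, *Ptgr1* in astrocytes), which fixes the direction. The other 8 had the same direction in 8 of 8 libraries and include *Ptgs1* in microglia over border macrophages (mean log2 difference 3.95), *Tbxas1* in microglia over astrocytes (6.25), *Ptgs2* in glutamatergic neurons over microglia (1.63) and *Hpgds* in border macrophages over striatal projection neurons (3.35).

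Between genotypes *Hpgd* was higher in *Ifnar1*-/- microglia, which is why the 10 genes were chosen. Its level was 123, 130.0, 112 and 64.7 CPM in Wt F1, F2, M1 and M2 and 288, 307, 279 and 289.8 CPM in the corresponding *Ifnar1*-/- libraries. These are 146, 95, 62 and 73 UMIs and 50, 247, 227 and 368 UMIs. Every *Ifnar1*-/- library lay above every Wt library, and Wt M2 was the lowest. The fitted log2 fold change was 1.45 (SE 0.20). In CPM the *Ifnar1*-/- libraries lay closer together (SD 11.7) than the Wt libraries (SD 29.4). *Ifnar1*-/- F1 rested on 50 UMIs, and the spread was not tested against counting error. For the percent of microglia with an *Hpgd* UMI the order was the reverse (SD 4.30 in *Ifnar1*-/- and 3.86 in Wt). With nuclei thinned to an equal depth it was again that of CPM (SD 1.46 and 2.47).

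Counted by nucleus, 12.5% ± 3.86 (SD, n = 4) of Wt microglia and 30.3% ± 4.30 of *Ifnar1*-/- microglia had an *Hpgd* UMI, at a median depth of 1472 UMIs. Oligodendrocytes had a UMI in 0.0565% and 0.251% of nuclei at a median of 2057 UMIs. With every nucleus thinned to 1000 UMIs the microglial shares were 9.40% and 23.1%, and those of oligodendrocytes 0.0188% and 0.147%. More nuclei with a UMI went with the higher level in *Ifnar1*-/- microglia. The share and the level come from the same UMIs, so the share is a description too.

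The other genes of the pathway in microglia overlapped between the genotypes. *Hpgds* stood at 864, 969, 599.5 and 619 CPM in Wt and 811, 945, 619 and 931 CPM in *Ifnar1*-/-. *Tbxas1* stood at 514, 561, 482 and 422 CPM in Wt and 512, 627, 479 and 505 CPM in *Ifnar1*-/-. For *Hpgds* the lowest libraries were Wt M1, *Ifnar1*-/- M1 and Wt M2, and for each gene the Wt range and the *Ifnar1*-/- range overlapped. The log2 fold changes were 0.12 (SE 0.21) for *Hpgds*, 0.11 (SE 0.16) for *Tbxas1*, 0.09 (SE 0.20) for *Ptgs1*, -0.14 (SE 0.48) for *Ptgds* and -0.04 (SE 0.28) for *Ptges3*, each with an adjusted p of 1 in edgeR. The direction for *Tbxas1* and *Ptgs1* turned when nuclei were classed by their own markers and when *Ifnar1*-/- F2 or *Ifnar1*-/- F1, respectively, was left out. The other 4 genes had too few microglial UMIs to pass the filter on low counts.

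**Figure D2:**
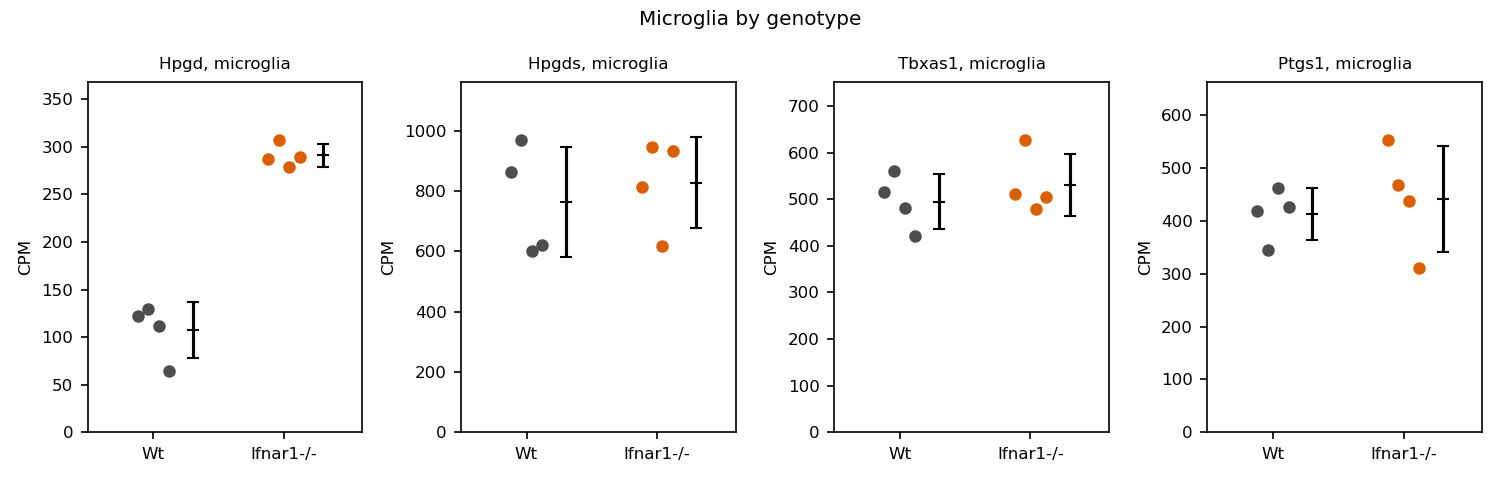
Level in microglia (CPM) of *Hpgd*, *Hpgds*, *Tbxas1* and *Ptgs1*, with a point for each library, 4 in each genotype, and the mean with its SD as a bar. The *Hpgd* points do not overlap, the contrast on which the genes were chosen, and those of the other genes do.

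Of the other genes tested, 0 of 5 were called between genotypes in microglia by edgeR (0 at an unadjusted p under 0.05, and 0 by DESeq2), where 0.105% of 9558 genes were. *Hpgd* is left out of that count because it was chosen on this contrast, and so is its all-nuclei contrast, which holds the microglial UMIs. The same count was 0 of 9 in glutamatergic neurons with 0.0494% of all genes, 0 of 7 in GABAergic neurons with 0.0274%, 0 of 5 in oligodendrocytes with 0.0632% and 0 of 3 in striatal projection neurons with 0.012%. Over all nuclei it was 0 of 9 with 0.0501% of genes. In newly formed oligodendrocytes and in precursors *Ptgds* alone could be tested, in border macrophages *Hpgds* alone, and each count was 0 with 0% of all genes. At an unadjusted p under 0.05 there was 1 gene in these tests, *Hpgd* in glutamatergic neurons, and DESeq2 called 0 in each of these classes. In astrocytes none of the 10 genes passed the filter on low counts. Few genes of any kind were called between genotypes, so these counts of 0 do not set the 10 apart.

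The share of microglia with a UMI gave the same picture for the other 9 genes, by exact permutation tests of 4 against 4 libraries (lowest p = 0.143, for *Ptgs2*). Thus 62.0% ± 11.5 (SD, n = 4) of Wt and 66.9% ± 11.9 of *Ifnar1*-/- microglia had a *Hpgds* UMI, against 3.07% and 2.20% of oligodendrocytes, at the median depths of 1472 and 2057 UMIs. After thinning to 1000 UMIs these shares were 50.6%, 55.3%, 1.44% and 1.15%. Roughly as many microglia carried *Tbxas1* (48.6%, thinned 38.0%) as carried *Ptgs1* (44.5%, thinned 34.5%), against 0.994% and 0.457% of oligodendrocytes (thinned 0.484% and 0.212%).

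*Hpgd* in glutamatergic neurons was not part of the choice, although it comes from the same mice. It stood at 1.93, 2.51, 2.49 and 2.95 CPM in Wt and 3.79, 3.64, 3.93 and 3.66 CPM in *Ifnar1*-/-. All 4 *Ifnar1*-/- libraries lay above all 4 Wt libraries, at a level far lower than in microglia. The share of all genes without overlap of the genotypes was not counted, so the lack of overlap does not set *Hpgd* apart. The log2 fold change of 0.62 (SE 0.16) did not pass edgeR's test over all genes (adjusted p = 1, unadjusted p = 0.00319). A part of free microglial RNA in this difference was not tested. The summed level of the 8 microglial markers in glutamatergic neurons was 108, 111, 97.8 and 98.1 CPM in Wt and 171, 112, 87.9 and 108 CPM in *Ifnar1*-/-, which overlapped, with *P2ry12* the most abundant and no marker at 0.

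*Hpgd* lies on mouse chromosome 8. Within 5 Mb of it 47 other genes were counted, of which 13 could be tested in microglia. Of these 0 were called between genotypes by edgeR, 0 had an unadjusted p under 0.05, and DESeq2 called 0. In glutamatergic neurons 1 of 35 tested was called (7 had an unadjusted p under 0.05), where 0.0494% of all genes were called and 1.76% had such an unadjusted p. It was the lincRNA *Gm45388*, whose start is 4.21 Mb from that of *Hpgd*. DESeq2 called 4 there, *Gm45388*, *Gm45389*, *Aga* and *Vegfc*, of 44 genes it called in that class. Whether this region differs between the lines of mice was not tested.

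Between the sexes many genes of every kind differed (30.5% of all genes in glutamatergic neurons and 19.7% in microglia). The share of all genes without overlap of the sexes was not counted, so a lack of overlap does not set the genes below apart. *Ptgds* in glutamatergic neurons was among the genes that differed. The female libraries had 4.06, 4.64, 8.78 and 4.27 CPM (Wt F1, Wt F2, *Ifnar1*-/- F1 and *Ifnar1*-/- F2) and the male libraries 15.2, 17.2, 12.8 and 14.8 CPM in the same order. Every male library lay above every female library, for a log2 difference of males against females of 1.42 (SE 0.24, edgeR adjusted p = 0.00236). In microglia the values were 21.0, 30.1, 17.3 and 23.6 CPM in females and 92.4, 64.7, 48.0 and 78.0 CPM in males, again without overlap (log2 difference 1.56, SE 0.24, edgeR adjusted p = 0.000618). The microglia fell into a pair of clusters that divided largely by sex: 1 held 596, 445, 54 and 411 nuclei of the female libraries and 13, 30, 14 and 75 of the male ones, and the other 66, 70, 101 and 27 and 465, 735, 593 and 690. Sex differences in microglia therefore compare nuclei of different clusters for the most part. Any step of dissection, nuclei preparation or sequencing shared by the mice of 1 sex cannot be told apart from sex, and the labels name no such batch.

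In oligodendrocytes, which gave most of its UMIs, *Ptgds* differed less between the sexes. Females had 1803, 1715, 1373 and 2077 CPM and males 1984, 4070.1, 4359.8 and 2097 CPM. Wt M2 and *Ifnar1*-/- M1 were the high libraries, whereas Wt M1 and *Ifnar1*-/- M2 lay within or next to the female range. The log2 difference of 0.74 (SE 0.24) passed in edgeR (adjusted p = 0.0369) and not in DESeq2 (adjusted p = 0.174). It also failed without Wt F1, Wt F2, Wt M2, *Ifnar1*-/- F1 or *Ifnar1*-/- M1, where it was 0.75, 0.75, 0.47, 0.62 and 0.49. In GABAergic neurons the log2 difference was 0.79 (SE 0.24, edgeR adjusted p = 0.0345), and it failed without Wt F1, Wt F2, Wt M1, Wt M2, *Ifnar1*-/- F2 or *Ifnar1*-/- M1 (lowest 0.54, without Wt F1). The part of free oligodendrocyte RNA in the *Ptgds* differences of the other classes was not tested.

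*Hpgds* went the other way and was lower in males in each class where edgeR called it. In border macrophages its mean was higher in males (669 ± 280 CPM, against 424 ± 261 in females, SD, n = 4). It was not called there (log2 difference 0.55, edgeR adjusted p = 0.727). Glutamatergic neurons had 34.2, 50.7, 55.5 and 38.3 CPM in females and 21.6, 21.0, 20.6 and 27.4 CPM in males. No male library reached the lowest female library, for a log2 difference of -1.04 (SE 0.17, edgeR adjusted p = 0.00174). The log2 differences were -0.78 in GABAergic neurons, -0.99 in oligodendrocytes and -0.90 in striatal projection neurons (edgeR adjusted p = 0.00448, 0.00751 and 0.0198). The striatal call was lost without Wt F2, Wt M2, *Ifnar1*-/- F1 or *Ifnar1*-/- M1, at -0.74, -0.83, -0.76 and -0.90. The microglial marker sum in glutamatergic neurons was 108, 111, 171 and 112 CPM in females and 97.8, 98.1, 87.9 and 108 CPM in males, where every male library lay below every female library, by a small margin between *Ifnar1*-/- M2 and Wt F1. In oligodendrocytes, where *Hpgds* was also lower in males, the sum was higher in males (116 ± 18.4 CPM in females and 155 ± 16.3 in males, SD, n = 4). The part of microglial RNA in the *Hpgds* differences was not tested.

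The *Hpgds* of microglia themselves was 864, 969, 811 and 945 CPM in females and 599.5, 619, 619 and 931 CPM in males. Among the males *Ifnar1*-/- M2 lay within the female range and the other 3 lay below it. The log2 difference of -0.42 (SE 0.14) passed narrowly in edgeR (adjusted p = 0.0468). It failed in DESeq2 (adjusted p = 0.0927) and without Wt F1, Wt F2, Wt M1, Wt M2, *Ifnar1*-/- F2 or *Ifnar1*-/- M1, where it ranged from -0.44 (without Wt F1) to -0.36 (without *Ifnar1*-/- M1). *Tbxas1* and *Hpgd* in microglia did not pass (-0.27 and -0.33, edgeR adjusted p = 0.104 and 0.151).

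*Ptges2* and *Ptges3* were higher in males in some classes. *Ptges2* in glutamatergic neurons stood at 6.10, 6.14, 5.54 and 5.62 CPM in females and 10.7, 12.0, 12.1 and 8.50 CPM in males. The sexes did not overlap, at a log2 difference of 0.83 (SE 0.13, edgeR adjusted p = 0.00156). The differences were 1.09 in GABAergic neurons and 1.12 in oligodendrocytes (edgeR adjusted p = 0.00568 and 0.0102). *Ptges3* was higher by 0.42 in glutamatergic neurons and by 0.53 in GABAergic neurons (edgeR adjusted p = 0.00467 and 0.00812), without overlap of the sexes in either. Glutamatergic neurons had 20.8, 21.5, 19.6 and 19.4 CPM in females and 27.0, 29.9, 28.6 and 28.2 CPM in males. *Ptges3* did not pass in oligodendrocytes, microglia or striatal projection neurons (0.38, 0.42 and 0.51, edgeR adjusted p = 0.16, 0.195 and 0.214). The cyclooxygenases were not called in any class (for *Ptgs2* in glutamatergic neurons -0.15, edgeR adjusted p = 0.425).

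**Figure D3:**
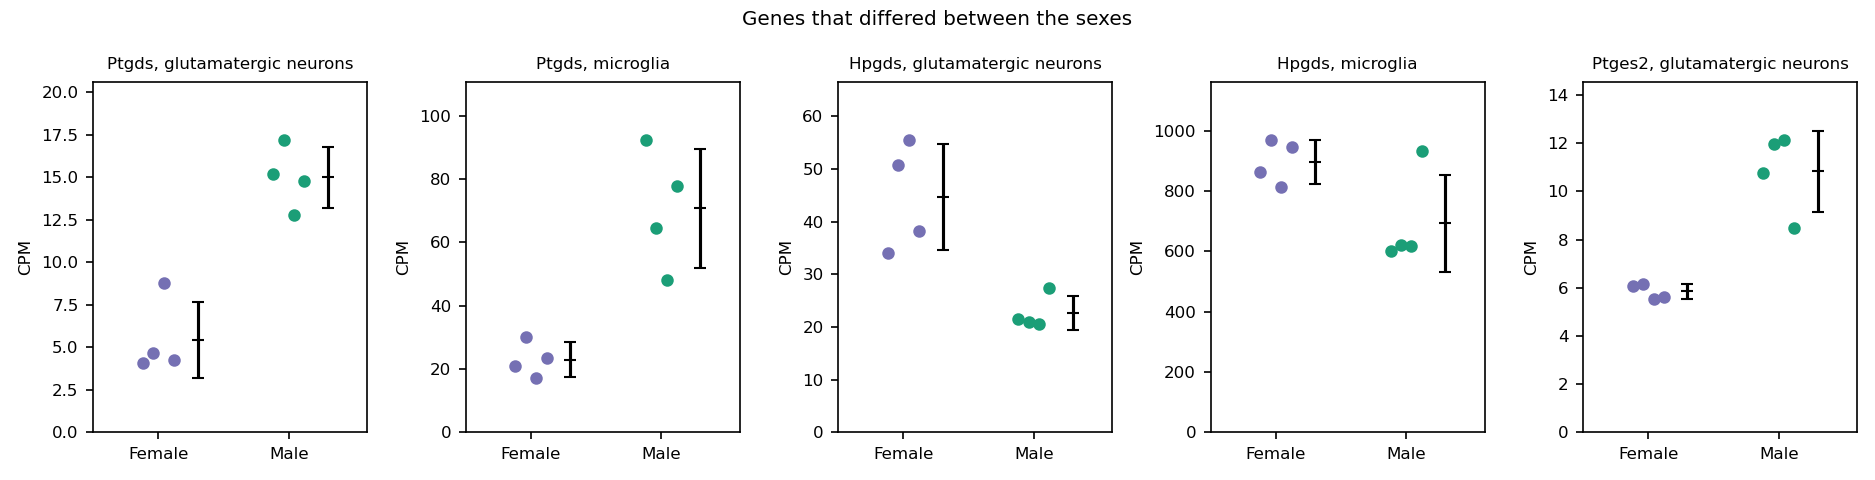
Level (CPM) of *Ptgds*, *Hpgds* and *Ptges2* in female and male libraries, with a point for each of 4 libraries per sex and the mean with its SD as a bar. *Ptgds* and *Ptges2* are higher in the males and *Hpgds* is lower, with overlap for *Hpgds* in microglia.

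Differences between the sexes were common among all genes, so these counts must be read against that background. In glutamatergic neurons 4 of 9 genes of the pathway were called by edgeR, where 30.5% of all genes were. The counts were 4 of 7 in GABAergic neurons (25.6% of all genes), 3 of 5 in oligodendrocytes (22.8%), 2 of 6 in microglia (19.7%), 1 of 3 in striatal projection neurons (11.5%) and 4 of 10 over all nuclei (27.2%). *Ptgds*, the gene tested in precursors and in newly formed oligodendrocytes, was not called there, so the count was 0 of 1 in each (3.57% and 2.13% of all genes, 1 and 1 at an unadjusted p under 0.05, 0 and 0 by DESeq2). In border macrophages 0 of 2 were called (1.08% of all genes, 0 at an unadjusted p under 0.05 and 0 by DESeq2).

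Whether the genotype difference itself depended on sex was tested as an interaction. None of the genes was called in any of the 9 fitted classes with a testable member (all nuclei included), and neither was any other gene (0% of all genes in each). At an unadjusted p under 0.05 edgeR gave *Ptgs1* in microglia (-0.70, SE 0.29), *Ptgds* in GABAergic neurons (-1.11, SE 0.38) and *Tbxas1* in oligodendrocytes (-1.97, SE 0.75). Of all genes 2.31%, 1.66% and 2.79% had such a p in these classes. In border macrophages the value for *Hpgds* was 1.92. Wt F1 and *Ifnar1*-/- F1 were left out of that fit (7 and 3 nuclei). F2 was thus the only female library of each genotype there, and the value is a description. Wt F1 was also left out in newly formed oligodendrocytes (6 nuclei). DESeq2 was not run for the interaction, and each cell of that design holds 2 mice in the other classes fitted here.

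The rest of the pathway was examined through lists of genes. Of 10 prostaglandin receptors 4 could be tested in microglia and 5 in glutamatergic neurons, of 15 genes that supply arachidonate 9 and 14, of 6 further prostanoid synthases and reductases 5 and 6, and of 4 transporters 2 and 4. Between genotypes edgeR called 0 genes of these lists in every class, and DESeq2 called 0 as well, where edgeR called 0.105% of all genes in microglia and 0.0494% in glutamatergic neurons. At an unadjusted p under 0.05 there were 0 in microglia (1.55% of all genes) and 1 in glutamatergic neurons (1.76%). So few calls do not set these lists apart. Most abundant by UMIs in microglia were *Slco2b1*, an organic anion transporter (1141 ± 163 CPM in Wt and 1169 ± 128 in *Ifnar1*-/-, SD, n = 4), and *Abhd12*, a lipase (697 ± 82.2 and 719 ± 60.4).

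Receptors of prostaglandin E also differed between the sexes. *Ptger4*, a receptor of prostaglandin E that raises cyclic AMP, was lower in males in microglia (27.2 ± 7.57 CPM in females and 10.3 ± 1.92 in males, SD, n = 4), at a log2 difference of -1.31 (edgeR adjusted p = 0.0101). It was also lower in glutamatergic neurons (-1.35) and oligodendrocytes (-1.24). In glutamatergic neurons *Ptger1* was lower (-0.62) and *Ptger3* higher (0.45), which makes 3 of 5 receptors tested, where 30.5% of all genes were called. Of 6 further synthases and reductases 3 were called in glutamatergic neurons, against the same 30.5% of all genes. *Ptgis*, which makes prostacyclin, was lower in males in glutamatergic neurons (63.4 ± 14.9 against 23.2 ± 6.65 CPM, log2 difference -1.51), and *Fam213b*, which makes prostaglandin F, was higher (0.71), as was the reductase *Zadh2* (0.45).

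Supply and leukotriene genes were also compared between the sexes. Of 14 arachidonate supply genes tested in glutamatergic neurons *Pla2g12a* (0.58) and *Abhd12* (0.30) were higher in males and 0 were lower (30.5% of all genes were called). In oligodendrocytes 3 of 10 were called (22.8% of all genes): *Pla2g12a* (1.23), *Pla2g4a* (-0.47) and *Pla2g15* (-0.94). In microglia 0 of 9 were called by edgeR (19.7% of all genes, 0 at an unadjusted p under 0.05, 0 by DESeq2). *Alox5*, the lipoxygenase that begins leukotriene synthesis, was lower in males in microglia (-0.83, edgeR adjusted p = 0.0481, not called by DESeq2) and in glutamatergic neurons (-1.02). *Ltc4s*, a leukotriene synthase, was higher in males in glutamatergic neurons (1.32). These were 1 of 4 leukotriene genes tested in microglia and 2 of 8 in glutamatergic neurons. In oligodendrocytes 1 of 2 was called, *Lta4h* (-0.54). Immediate early genes, listed because *Ptgs2* responds to activity, were higher in males in all 5 tested in microglia (4 by DESeq2; 19.7% of all genes were called), in 5 of 12 in glutamatergic neurons (30.5%) and in 5 of 7 in oligodendrocytes (22.8%). The number of calls in microglia depended on single libraries. It was 7 over these lists (these 5, *Ptger4* and *Alox5*), 2 without Wt F1, 2 without Wt M2 and 1 without *Ifnar1*-/- F2. *Junb* was among the genes called (1.29 in microglia and 1.63 in glutamatergic neurons). The part of immediate early genes in the sex differences of the pathway was not tested.

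Genes with a pattern over classes like that of each gene were found by Pearson's r of log2(CPM + 1) over the 10 class means, among 17768 genes. The 10 means come from the same 8 libraries and classes of unequal depth, so r is a description. The nearest to *Tbxas1* were *C1qa* (0.990), *Csf1r* (0.989) and *P2ry6* (0.988). *Hpgd* was most like *Catip* (0.958), *Tapbpl* (0.955) and *Plekhf2* (0.950), *Hpgds* most like *Gm35154* (0.985), *Klhl6* (0.978) and *Plcb2* (0.978), and *Ptgs1* most like *Nuak2* (0.955), *Hps4* (0.955) and *Fgfr1op* (0.953). For *Ptgds* they were *Snx33* (0.974), *Gstm7* (0.971) and *Clasrp* (0.953). *Ptgs2* lay nearest to *Smoc2* (0.957), *Col22a1* (0.954) and *Gm49321* (0.937), and *Ptges* to *Gm16287* (0.964), *Crybb3* (0.960) and *Col12a1* (0.958). *Ptges2* was most like *Prpf4* (0.993), *Gm20422* (0.987) and *Gm16794* (0.987) and *Ptges3* most like *Tpt1* (0.979), *Ppia* (0.973) and *Cox6b1* (0.973). Classes with few nuclei weigh as much in r as large ones. *Ptgr1* had too few UMIs for this measure.

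The promoters of the macrophage genes are shown because *Ptgs1*, *Hpgds* and *Tbxas1* had their high levels in the same classes and *Hpgd* joined them with a genotype difference. The sequences are the 250 bases before the RefSeq gene start (build GRCm38.p6), on the strand of the gene, and all 10 genes matched the table. Capitals mark GAGGAAGT, or AGAGGAAG, which overlaps it, on either strand. These are forms of the site bound by PU.1, a transcription factor of macrophages. GAGGAAGT was found in *Ptgs1* and *Hpgds* and in 2.44% of 32851 promoters, and AGAGGAAG in *Ptgs1* and *Tbxas1* and in 3.67%. The promoters lie on chromosome 2 from 36230176 to 36230425 for *Ptgs1*, chromosome 6 from 65144731 to 65144980 for *Hpgds* (minus strand), chromosome 6 from 38918736 to 38918985 for *Tbxas1*, and chromosome 8 from 56294302 to 56294551 for *Hpgd*.
Ptgs1: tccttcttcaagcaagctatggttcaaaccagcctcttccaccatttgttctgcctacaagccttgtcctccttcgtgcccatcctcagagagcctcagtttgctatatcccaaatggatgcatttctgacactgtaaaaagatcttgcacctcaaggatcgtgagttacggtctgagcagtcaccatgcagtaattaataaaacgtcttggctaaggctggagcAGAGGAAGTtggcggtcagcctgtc
Hpgds: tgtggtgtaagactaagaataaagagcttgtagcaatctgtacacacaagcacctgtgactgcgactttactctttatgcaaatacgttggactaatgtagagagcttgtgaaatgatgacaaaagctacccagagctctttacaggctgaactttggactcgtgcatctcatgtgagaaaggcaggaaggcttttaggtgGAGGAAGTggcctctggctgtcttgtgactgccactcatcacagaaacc
Tbxas1: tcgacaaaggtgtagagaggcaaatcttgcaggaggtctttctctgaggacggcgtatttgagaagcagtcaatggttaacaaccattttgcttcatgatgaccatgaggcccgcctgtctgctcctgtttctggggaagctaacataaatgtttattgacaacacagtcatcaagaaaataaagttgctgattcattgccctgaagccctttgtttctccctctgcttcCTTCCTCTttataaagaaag
Hpgd: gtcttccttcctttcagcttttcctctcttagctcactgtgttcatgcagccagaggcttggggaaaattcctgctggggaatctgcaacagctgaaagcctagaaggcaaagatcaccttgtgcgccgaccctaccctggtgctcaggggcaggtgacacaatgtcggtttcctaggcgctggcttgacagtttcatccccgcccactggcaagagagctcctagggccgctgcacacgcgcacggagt

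In all 8 motifs were searched on both strands. The gamma-activated site TTCNNNGAA was in 0 of the 10 promoters and in 7.02% of all. An interferon-stimulated response element (GAAA, any 2 bases, GAAA) was in 0 of the 10 and in 2.98% of all. The TATA box TATAAA was in *Tbxas1* (12.4% of all) and the E-box CACGTG in *Ptges2* (6.02%). The cyclic AMP response element TGACGTCA (1.55%) was in none of the 10, and neither was the NF-kB site searched. A match is a description of letters, and no match says only that these letters are not in this window.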

How the data were processed

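Nuclear RNA of 8 cortices, 1 library each, was counted in UMIs with the Single Cell 3' v3 chemistry. The authors deposited raw counts (UMIs per gene and barcode) made by Cell Ranger on an mm10 reference in which unspliced transcripts also count, and these deposited counts cover barcodes already called as nuclei, with no doublet removal or normalization. Nuclei with more than 200 and fewer than 6000 genes, more than 1000 UMIs and under 10% mitochondrial UMIs were kept (54341), and Scrublet calls were removed as doublets (2262, 4.16%). Clusters (scanpy 1.11.5, Python 3.11.15, 3000 variable genes, 40 components, Leiden resolution 1.5, 46 clusters, without integration) were named from marker lists. The 10 genes and those of the pathway lists, 66 in all, were kept out of clustering. Thresholds for names were set after the clusters were seen, and 9 clusters stayed unnamed.

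UMIs were summed per class and library and fitted with edgeR 4.0.16 in R 4.3.3 (quasi-likelihood, TMM, filterByExpr, Benjamini-Hochberg over all genes of a class). Genotype was fitted alone, sex beside genotype, and their interaction beside both. A library with under 10 nuclei of a class was left out of its fit. The grouping used by the filter on low counts (genotype, or sex for the sex fits), and the need for 3 libraries per genotype and 2 per sex, were settled after first fits were seen. CPM are UMIs of the gene over UMIs of the class in the library, times 1e6, without TMM. Other tests were exact permutation tests, two-sided. Alternatives were DESeq2 1.42.0, RLE factors, no filter on low counts, sex as a covariate or genotype left out, the replicate block, each library left out, doublets kept, nuclei classed by their own markers, TMM-scaled CPM, and thinning.

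Replicate labels (F1, F2, M1, M2) gave profiles that correlated between genotypes in each of the 7 classes examined after centring (lowest r = 0.105, in microglia). In glutamatergic neurons the mean was 0.840 for the same label, 0.858 for the other label of the same sex and -0.849 for the other sex, across genes, which are not independent replicates.

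Genes named are the 10, the genes of the lists that were called or had the most UMIs in a class described, the 3 most alike per gene with at least 200 UMIs, and the called genes within 5 Mb of *Hpgd*. The genes and lists were chosen with earlier results of these data known, and the motifs after the levels were seen. Positions come from GENCODE vM21 (GRCm38), whose release may differ from that of the authors' reference. The RefSeq starts of *Tbxas1* and *Hpgds* lie inside their GENCODE spans. Intervals and floors (3 UMIs for a count of 0) cover counting error only.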

Additional observations from a re-analysis of the deposited data

Results flagged for a closer look

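In 64 groups of 4 libraries (genes by class and genotype), 1 library stood apart from its group, with a gap to its nearest neighbour of 0.886 of the group's range, above the critical value of Dixon's test for 4 values. It was Wt M2 for *Ptgds* in oligodendrocytes, at 4070.1 CPM against 1803, 1715 and 1984 CPM in Wt F1, Wt F2 and Wt M1. Chance alone marks about 1 in 20 groups. *Ifnar1*-/- M1 had a similar level (4359.8 CPM). In all 3 oligodendrocyte clusters Wt M2 was the highest Wt library. The cause was not tested.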

How the results depend on the processing

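Between genotypes the count of called genes of the 10, *Hpgd* in microglia aside, was 0 under every alternative in every class, and *Hpgd* kept its direction in glutamatergic neurons. In microglia *Tbxas1* turned from 0.11 to -0.0226 with nuclei classed by their own markers and ranged from -0.00382 to 0.18 with 1 library left out. *Ptgs1* turned from 0.09 to -0.125 and ranged from -0.0118 to 0.25. Its microglial mean was 329 CPM by own markers. Thinning turned the difference in the percent of microglia with a UMI (*Ifnar1*-/- minus Wt) to -0.653 for *Ptgds*, -0.0489 for *Ptges*, -0.0728 for *Ptges2* and 0.128 for *Ptges3*. The cause was not tested.

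Between the sexes the 14 log2 differences of the 10 genes that edgeR called in single classes kept their direction. In microglia 2 of the 10 genes were called, 1 by DESeq2, and 1 to 2 with 1 library left out. Of the other lists 7 genes were called in microglia, 13 with no filter on low counts, and 1 to 9 with 1 library left out. Striatal projection neurons had 1 call, 2 with no filter and 0 to 1 with 1 library left out, and newly formed oligodendrocytes had 0, or 0 to 1 with 1 library left out. Fewer libraries give less power, and the cause of the other changes was not tested. The replicate block changed no call.

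With 4 mice per genotype, small differences could not be detected, and classes with few UMIs (astrocytes, border macrophages, leptomeningeal and vascular cells) give levels that rest on single libraries. Sex and any batch shared by a sex cannot be told apart. Free RNA was not removed.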
